A study of Mus musculus with 14 samples.

Results

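Genes that mark the neurons of the inner retina and their synapses were examined in whole eyes of newborn mice lacking 1 of the chromatin remodelling ATPases Snf2h and Brg1. The genes were chosen by name: 15 of amacrine and horizontal cells, 9 of ganglion cells and 11 general neuronal and synaptic genes, 35 in all. Each was represented by 1 probe set, the one annotated to that gene alone with the highest mean over all 14 arrays. This gave 31 of the 35 genes, among 12393 genes measured. The amacrine genes Barhl2 and Chat and the ganglion cell genes Pou4f1 and Pou4f2 were matched to no probe set and are not analysed here, so 13, 7 and 11 genes of the 3 classes remained. Of the 31, 22 had a mean log2 level at or above 6.87, the median level over all named probe sets. Gad2, Onecut1, Calb1, Th, Scgn, Pnoc, Syt1, Syn2 and Apba2 lay below it.

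The Snf2h experiment held 4 wildtype samples and 4 with lens-conditional knockout of Snf2h (cKO), the ISWI ATPase encoded by Smarca5, all of strain C57BL/6. The Brg1 experiment held 3 wildtype and 3 knockout samples for Brg1, the SWI/SNF ATPase encoded by Smarca4, all on a mixed background. Eyes were taken at postnatal day 1. The labels name neither the alleles nor the Cre driver of either knockout, and for Brg1 not the deleted cells either. They do not say which samples came from separate litters or whether animals were pooled, so p-values measure only the spread between these samples. All values are RMA intensities on the log2 scale, where a difference of 1 is a doubling. Each knockout was compared with the wildtype arrays of its own experiment, and no array served in both. Genes were called with limma where the adjusted p (Benjamini-Hochberg, all 12393 genes) was under 0.05.

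Amacrine cells are inhibitory interneurons that signal with GABA or glycine, horizontal cells modulate photoreceptor output, and ganglion cells send the axons of the optic nerve. Ganglion, horizontal and most amacrine cells of the mouse are born before birth, while many rods, bipolar cells and glia are still to form. Synaptic vesicles fuse through SNARE proteins, with synaptotagmin as the calcium sensor. None of these neurons belongs to the lens. In whole-eye RNA, fewer cells of a type, less RNA per cell and a change in other cells that express the gene cannot be told apart. The cells that gave each signal were not identified, and the class names do not mean that other eye tissues lack these genes.

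The arrays differed in ways that bear on these values. The SD over genes of the difference between 2 arrays of a group was 0.205 for Snf2h cKO replicates 1 and 2 and 0.401 to 0.723 for the other 17 pairs. Replicates 1 and 2 may not be independent, yet the main fit counts them as 2 arrays. The Snf2h standard errors and p-values rest on that. The 3' minus 5' difference of the Gapdh control, which grows as RNA degrades, was 1.09 to 4.47 in Snf2h wildtype and 0.77 to 0.99 in Snf2h cKO arrays, with the 4.47 in wildtype replicate 3. In the Brg1 experiment it was 0.68 to 0.74 in wildtype and 0.63 to 0.96 in knockout arrays. Of the targeted genes, Smarca5 on its brightest probe set lay at 9.34 to 9.82 in wildtype and 8.52 to 9.73 in Snf2h cKO arrays, with overlap (log2 change −0.19 ± 0.25 SE, adjusted p = 0.711). Its other probe sets gave −0.50 ± 0.16 (adjusted p = 0.188 over all probe sets) and 0.31 ± 0.25. Smarca4 on its brightest probe set lay at 8.91 to 9.16 in wildtype and 8.71 to 9.41 in Brg1 cKO arrays, with overlap (0.05 ± 0.22 SE, adjusted p = 0.969). Its dimmer probe set gave −0.74 ± 0.30 (adjusted p = 0.579 over all probe sets). Neither targeted gene was called lower in its own knockout on any probe set, so these values do not check the labels. In Snf2h cKO eyes the dimmer Smarca4 probe set gave 0.89 ± 0.17 (adjusted p = 0.0888 over all probe sets), without overlap. On that probe set the Brg1 effect minus the Snf2h effect was −1.63 ± 0.34 (limma, adjusted p = 0.0423 over all probe sets). Whether these probe sets lie in the deleted exons is not given in the sources used here. In Snf2h wildtype arrays the summed intensity was 89200 to 124300 over 19 of 24 lens genes and 13840 to 18000 over 31 of 37 photoreceptor genes. In Brg1 wildtype arrays these sums were 106300 to 120400 and 14270 to 15920. No other tissue was measured, so the sums describe the samples and do not check the eye label.

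In Snf2h cKO eyes no gene of the 31 passed the test, and the arrays of 14 did not overlap with wildtype. For 11 of the 31 genes the lowest of the 4 knockout arrays exceeded the highest wildtype array, and 3 genes lay below in the same sense. Among all genes 5.5% were higher and 4.81% lower in this way. The 11 were the amacrine genes Gad2, Tfap2b, Calb2 and Pnoc, the ganglion cell gene Sncg, and the general neuronal genes Syt1, Vamp2, Syp, Apba2, Stmn2 and Gap43. The 3 were Scgn, Rbpms and Thy1. By limma 0 of the 31 were called, beside 0.0161% of all genes, 1 higher and 1 lower (0.00807% each). With quantile normalisation per experiment both of the 2 calls were lower. Changes were positive for 21 of the 31 and negative for 10, beside 43.5% and 56.5% of all genes. At an unadjusted p under 0.05, 11 were higher and 3 lower, against 8.31% and 8.62% of all genes. With knockout replicates 1 and 2 averaged, 10 were higher and 3 lower at that threshold, beside 11.4% of all genes in either direction. With array weights, 7 of the 31 were called (Tfap2b, Calb2, Scgn, Pnoc, Rbpms, Sncg and Apba2), of 230 genes in all.

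The classes differed in how many members stood apart. Of the 11 general neuronal and synaptic genes 6 (54.5%) were higher on every knockout array and 0 were lower. Of the 13 amacrine and horizontal cell genes 4 (30.8%) were higher and 1 was lower, and of the 7 ganglion cell genes 1 (14.3%) was higher and 2 were lower. The median log2 change was 0.41 for the general neuronal and synaptic, 0.08 for the amacrine and horizontal and 0.03 for the ganglion cell genes. Over all genes it was −0.05. Each class was also averaged over its members on every array and set against the wildtype mean. The general neuronal and synaptic class lay at 0.43 to 0.59 in knockout and −0.28 to 0.22 in wildtype arrays, which do not overlap. The amacrine class lay at 0.09 to 0.38 and −0.16 to 0.11, and the ganglion cell class at −0.05 to 0.15 and −0.03 to 0.02, with overlap in both. Outside these classes, the mean of 25 other synaptic vesicle and release genes lay at 0.01 to 0.21 in knockout and −0.30 to 0.30 in wildtype arrays, with overlap. That of 36 neuronal cytoskeleton and axon genes lay at 0.11 to 0.29 and −0.09 to 0.10, without overlap. The difference between classes was not tested. The Gapdh difference moved with the groups as well, and its part in these values was not tested. Without wildtype replicate 3, 12 genes were higher and 3 lower, beside 12.6% of all genes in either direction. With that array left out and knockout replicates 1 and 2 averaged, a setting chosen after seeing the data, the counts were 12 and 3, beside 15.2%.

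**Figure D1:**
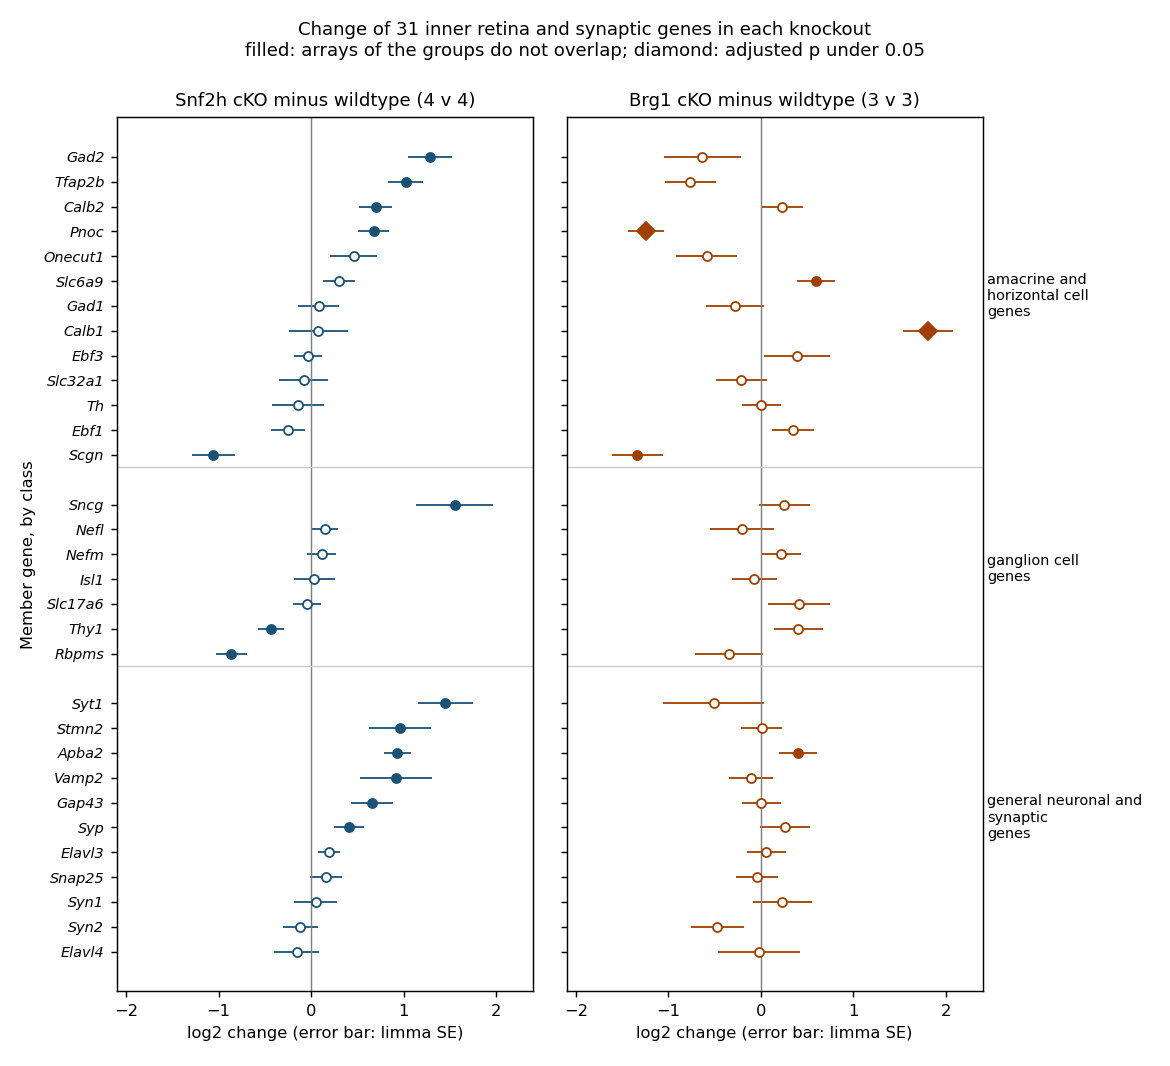
Log2 change of the 31 genes by class in Snf2h cKO eyes (left, 4 against 4 arrays) and Brg1 cKO eyes (right, 3 against 3), with limma standard errors as bars. Filled symbols mark genes whose knockout and wildtype arrays do not overlap, 14 on the left and 5 on the right, and diamonds the called genes Calb1 and Pnoc.

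Among genes of inhibitory neurons, the GABA-synthesising enzyme Gad2 showed the largest difference in the amacrine class. Its wildtype arrays read 5.71, 5.36, 5.15 and 5.33, and its Snf2h cKO arrays 6.35, 6.27, 7.34 and 6.74. All knockout arrays lay above all wildtype arrays, and knockout replicate 3 was the highest. The log2 change was 1.29 ± 0.24 (SE), 2.44-fold, with an adjusted p of 0.12. Gad1, which encodes the other GABA-synthesising enzyme, gave 0.08 ± 0.22 (SE), and Slc32a1, the vesicular transporter of GABA and glycine, −0.08 ± 0.26. The dimmer probe sets of Gad1 and Slc32a1 gave 0.40 ± 0.21 and 0.38 ± 0.165, both with overlap (adjusted p = 0.346 and 0.272 over all probe sets). The glycine transporter Slc6a9 read 10.51, 10.73, 10.56 and 10.30 in wildtype and 10.57, 10.60, 10.91 and 11.23 in knockout eyes, with overlap (0.30 ± 0.18, adjusted p = 0.402). The dimmer Slc6a9 probe set gave 0.55 ± 0.20, with 5.24 to 5.52 in wildtype and 5.53 to 6.47 in knockout eyes, without overlap (adjusted p = 0.223 over all probe sets). On the chosen probe sets of these 4 genes of inhibitory transmission, Gad2 alone had groups that did not overlap.

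The stretch before the Gad2 start carries a match to the core of RE1, the element bound by REST, a repressor of many neuronal genes outside neurons. The letters searched on both strands were AGCACC, any 2 bases and GGACAG, and 0.0457% of 32851 RefSeq promoters of the same length hold them. Promoters were at hand for 20 of the 31 genes, 30 promoters in all, and Gad2 was the only exact match. The shorter left arm of the element, TCAGCACC, whose last 6 letters are the first 6 of the core, was in 1.32% of promoters and among these genes in that of Syn1 alone. In Syn1 this arm is followed by gcggtcag, which departs from the rest of the core only by a T in place of an A. Inexact matches were not searched for, so Syn1 and Gad2 are not set apart by this search. The motifs were chosen after the values had been seen, and a match is a description of letters, not a bound site. The 250 bases before the start are shown 5′ to 3′ in the direction of the gene (RefSeq, GRCm38.p6) for Gad2 at chr2:22622077-22622326 (plus strand), Syn1 at chrX:20920919-20921168 (minus strand) and Tfap2b at chr1:19211804-19212053 (plus strand). Capitals mark the match, which begins 163 bases before the start in Gad2 and 231 in Syn1. Tfap2b, called where the knockouts were compared with each other, has neither string. No binding was measured in these eyes.
Gad2: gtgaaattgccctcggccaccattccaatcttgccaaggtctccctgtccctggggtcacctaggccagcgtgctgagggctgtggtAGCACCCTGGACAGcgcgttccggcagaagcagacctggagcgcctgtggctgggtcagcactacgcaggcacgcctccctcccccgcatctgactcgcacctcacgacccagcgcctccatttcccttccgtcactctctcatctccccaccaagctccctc
Syn1: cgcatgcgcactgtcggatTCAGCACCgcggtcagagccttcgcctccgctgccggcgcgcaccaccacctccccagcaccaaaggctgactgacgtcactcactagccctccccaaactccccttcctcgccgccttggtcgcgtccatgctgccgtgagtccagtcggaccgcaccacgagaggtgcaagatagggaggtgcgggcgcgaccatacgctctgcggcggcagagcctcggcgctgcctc
Tfap2b: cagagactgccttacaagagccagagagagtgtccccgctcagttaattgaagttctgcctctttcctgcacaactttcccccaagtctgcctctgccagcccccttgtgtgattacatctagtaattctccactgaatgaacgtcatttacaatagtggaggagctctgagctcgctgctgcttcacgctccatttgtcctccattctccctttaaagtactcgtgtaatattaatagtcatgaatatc

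Tfap2b, a transcription factor that specifies amacrine and horizontal cells, separated as cleanly. It read 8.93, 9.07, 8.51 and 9.11 in wildtype and 9.65, 9.79, 10.26 and 10.01 in Snf2h cKO eyes, with every knockout array above every wildtype array. The change was 1.02 ± 0.19 (SE), 2.03-fold, with an adjusted p of 0.106. Onecut1, a transcription factor of horizontal and ganglion cells, is dim on this array at 3.72 to 4.50 in wildtype and 4.09 to 5.09 in knockout eyes, and changed by 0.46 ± 0.26. Ebf1 and Ebf3, helix-loop-helix factors of developing inner retina neurons, gave −0.25 and −0.03. Of these 4 regulators, Tfap2b alone had groups that did not overlap.

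The neuropeptide precursor Pnoc read 6.39, 6.36, 5.84 and 6.50 in wildtype and 6.88, 6.96, 6.84 and 7.11 in Snf2h cKO eyes. The groups did not overlap, and wildtype replicate 3 was the lowest array (0.68 ± 0.17 SE, adjusted p = 0.163). Calretinin (Calb2), a calcium-binding protein of amacrine and ganglion cells, gave 0.70 ± 0.18 (SE, adjusted p = 0.163), with 9.02 to 9.79 in wildtype and 9.91 to 10.19 in knockout eyes. The related calbindin gene Calb1 read 6.59, 6.10, 6.99 and 5.29 in wildtype and 6.25, 6.29, 6.14 and 6.58 in knockout eyes, where the wildtype arrays spanned the whole knockout range (0.08 ± 0.32). Secretagogin (Scgn), a calcium sensor of bipolar and amacrine cells, went the other way. Its arrays read 5.81, 5.93, 5.21 and 5.75 in wildtype and 4.22, 4.28, 4.92 and 5.03 in knockout eyes, lower on every array (−1.06 ± 0.24 SE, 2.08-fold lower, adjusted p = 0.156). Tyrosine hydroxylase (Th), the dopamine-synthesising enzyme of 1 amacrine type, was at 2.65 to 4.03 in wildtype and 3.35 to 3.53 in knockout eyes, near the bottom of the array's range. Calcium-binding proteins of the inner retina thus lay on both sides of 0.

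Ganglion cell genes showed no common direction in Snf2h cKO eyes. The RNA-binding protein gene Rbpms, expressed in all ganglion cells, read 9.16, 9.11, 9.42 and 8.82 in wildtype and 8.49, 8.36, 7.95 and 8.26 in knockout eyes, lower on every array. The change was −0.86 ± 0.17 (SE, adjusted p = 0.122). Its probe sets disagreed. The other 3 gave −0.59, 0.33 and 0.22, and the mean of all gave −0.23 (adjusted p = 0.378). The surface protein gene Thy1 gave −0.43 ± 0.14 (adjusted p = 0.21), with 9.82 to 10.34 in wildtype and 9.58 to 9.79 in knockout eyes. Gamma-synuclein (Sncg) gave 1.55 ± 0.42 (adjusted p = 0.169), with 7.98 to 10.14 in wildtype and 10.43 to 11.19 in knockout eyes. The neurofilament genes Nefl and Nefm, the homeodomain factor Isl1 and the vesicular glutamate transporter Slc17a6 lay between −0.05 and 0.15, with overlapping groups. For Slc17a6 the dimmer probe set gave 1.57 ± 0.41 (adjusted p = 0.133 over all probe sets), with 3.44 to 5.68 in wildtype and 5.98 to 6.54 in knockout eyes. The 3.44 was wildtype replicate 3.

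Of the general neuronal genes, Apba2 had the smallest p of the 31. It encodes an adaptor that binds amyloid precursor protein and the fusion protein Munc18. The arrays read 5.18, 5.23, 5.04 and 5.11 in wildtype and 6.04, 6.04, 6.39 and 5.80 in Snf2h cKO eyes, a tight wildtype group below all knockout arrays. The change was 0.93 ± 0.15 (SE), 1.91-fold, with an adjusted p of 0.0839, rank 14 of all genes by p. Synaptotagmin (Syt1) read 4.11, 4.82, 3.97 and 5.25 in wildtype and 5.49, 6.07, 6.30 and 6.11 in knockout eyes. The groups did not overlap, and the change was 1.45 ± 0.30 (SE, adjusted p = 0.135). The dimmer Syt1 probe set gave 0.21 ± 0.19.

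The SNARE gene Vamp2 (0.92 ± 0.39 SE), the vesicle membrane protein synaptophysin (Syp, 0.41 ± 0.16), the microtubule regulator Stmn2 (0.96 ± 0.34) and the growth cone protein Gap43 (0.66 ± 0.22) were higher on every knockout array, with adjusted p of 0.218 to 0.277. Wildtype replicate 3 was the lowest array for Vamp2, Stmn2, Gap43 and Sncg. Without it their changes were 0.47, 0.56, 0.44 and 1.09, below the values with it. Wildtype replicate 3 was also the lowest wildtype array for Gad2 (5.15), Tfap2b (8.51), Calb2 (9.02), Pnoc (5.84), Syt1 (3.97) and Apba2 (5.04). It was the highest wildtype array for Rbpms (9.42) and Thy1 (10.34), which were lower in knockout eyes. For Syp (10.78, highest) and Scgn (5.21, lowest) it lay on the side of the knockout arrays. The other Vamp2 probe set read 8.38 in that array, within the 7.96 to 8.79 of the wildtype group, and changed by 0.13 ± 0.19. The other Stmn2 probe set read 10.18 there and changed by 0.35 ± 0.13 (adjusted p = 0.218 over all probe sets). The remaining general genes, the SNARE gene Snap25, the synapsins Syn1 and Syn2 and the neuronal RNA-binding proteins Elavl3 and Elavl4, lay between −0.16 and 0.19 with overlapping groups. Dimmer probe sets of both Elavl genes gave larger values. For Elavl3 they gave 0.59 ± 0.18, with 5.63 to 6.32 in wildtype and 6.50 to 6.77 in knockout eyes, and 0.75 ± 0.33 with overlap, and for Elavl4 0.71 ± 0.23 without and 0.17 ± 0.20 with overlap (adjusted p of 0.177 to 0.675 over all probe sets). Wildtype replicate 3 was the lowest wildtype array on the Elavl3 probe set with 0.75 (5.41) and on both dimmer Elavl4 probe sets (6.37 and 4.54). On the Elavl3 probe set with 0.59 it was at 6.32, the top of the wildtype range. Over the 31 genes, 17 had 23 further probe sets, of which 10 had the sign of the chosen one in Snf2h cKO eyes and 13 the opposite sign.

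**Figure D2:**
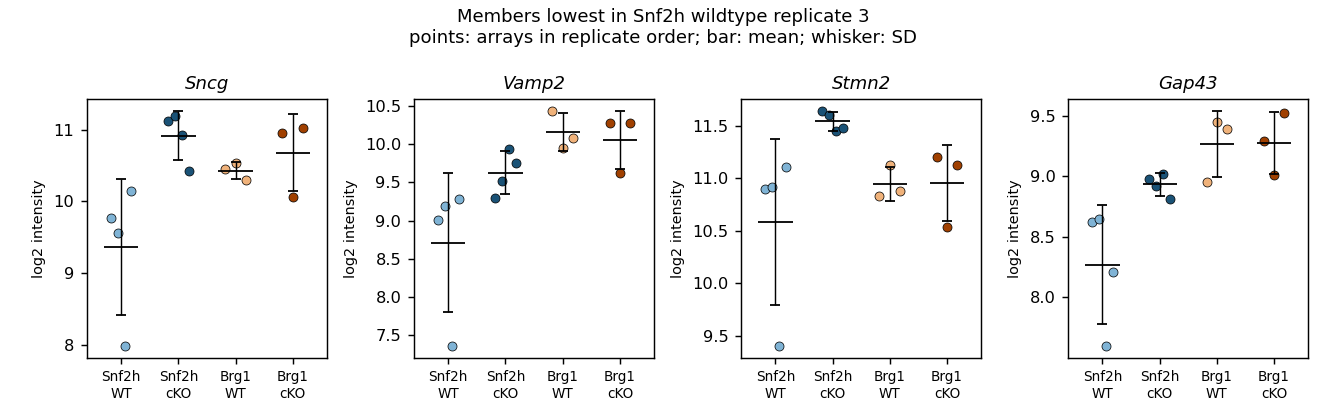
Log2 intensity of Sncg, Vamp2, Stmn2 and Gap43 on every array of the 4 groups, with group means as bars and SD as whiskers. The lowest Snf2h wildtype point in each panel is replicate 3, at 7.98, 7.36, 9.40 and 7.60, while the Snf2h cKO points lie above all Snf2h wildtype points.

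Related gene lists in Snf2h cKO eyes gave 0 calls each. At an unadjusted p under 0.05, of 36 measured neuronal cytoskeleton and axon genes 9 were higher and 0 lower (median 0.14), of 24 receptor and postsynaptic genes 5 were higher and 1 lower (0.10), and of 25 other vesicle and release genes 4 were higher and 0 lower (0.01). The microtubule protein Map1b (1.37 ± 0.19 SE, adjusted p = 0.054), the axonal motor Kif5c (1.47 ± 0.23, 0.0839) and the neuronal tubulin Tubb3 (1.20 ± 0.27, 0.156) were higher on every knockout array. So were the glutamate receptor subunit Gria4 (1.23 ± 0.28, 0.158), the nicotinic receptor subunit Chrna3 (0.80 ± 0.20, 0.163) and the release-site protein Rims2 (0.60 ± 0.16, 0.169). Of 29 inner retina regulators 2 were higher and 2 lower (median −0.02), with Sox4 at 1.02 ± 0.36 and Ebf2 at −0.39 ± 0.13. Positive medians were not limited to inner retina lists. Of 31 photoreceptor genes 11 were higher and 0 lower (median 0.36), of 24 progenitor and glial genes 5 were higher and 2 lower (0.07), and of 12 bipolar cell genes 0 were higher and 1, Scgn, lower (−0.09).

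Lists of other tissues had medians on both sides of 0 in the same comparison. The median was 0.13 over 18 skeletal muscle genes, 0.02 over 20 immune genes, −0.12 over 14 nerve glia genes, −0.41 over 20 stroma genes, −0.40 over 21 corneal and skin epithelium genes and −0.19 over 19 lens fibre genes. The summed stroma intensity was 27430 to 40260 in wildtype and 26130 to 28900 in Snf2h cKO arrays, and the epithelium sum 12990 to 23260 and 12730 to 16660. The sum over the 11 general neuronal and synaptic genes was 8829 to 10650 in wildtype and 12010 to 12980 in knockout arrays. The part of tissue make-up in the neuronal values was not tested.

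In Brg1 cKO eyes the neuronal genes showed no common direction, and 2 amacrine genes were called in opposite directions. Calb1, the calcium-binding protein calbindin of horizontal and amacrine cells, rose, and the neuropeptide precursor Pnoc fell, so 2 of 31 genes were called. Among all genes 1.09% were called, 0.613% higher and 0.476% lower. By arrays, 3 genes (Calb1, Slc6a9 and Apba2) had every knockout array above the wildtype range and 2 (Scgn and Pnoc) below it, beside 8.28% and 6.25% of all genes. At an unadjusted p under 0.05, 2 were higher and 3 lower, 9.21% of all genes passing in either direction (5.45% higher and 3.77% lower). Changes were positive for 16 of the 31 and negative for 15, beside 52.8% and 47.2% of all genes. The median change was −0.21 in the amacrine and horizontal, 0.22 in the ganglion cell and 0.01 in the general neuronal and synaptic class. Over all genes it was 0.02. The 5 genes whose arrays did not overlap were 16.1% of the 31, beside 14.5% of all genes.

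Calb1 read 4.96, 5.51 and 4.96 in wildtype and 7.36, 6.49 and 7.02 in Brg1 cKO eyes, with every knockout array above every wildtype array. The log2 level went from 5.14 ± 0.32 to 6.96 ± 0.44 (SD, n = 3 each), a change of 1.81 ± 0.27 (SE), 3.51-fold, with an adjusted p of 0.0303. Leaving out 1 array at a time, the adjusted p ran from 0.0092 to 0.163 and passed only without knockout replicate 2. The other Calb1 probe set is far dimmer (1.73 to 2.50 in wildtype, 1.89 to 2.0 in knockout eyes) and gave −0.14 ± 0.22, and the mean of both gave 0.84 (adjusted p = 0.216). Calb2 gave 0.23 ± 0.23 (SE, adjusted p = 0.846), with overlapping groups.

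Pnoc read 6.82, 6.97 and 6.92 in wildtype and 5.82, 5.33 and 5.84 in Brg1 cKO eyes. The wildtype arrays lay close together, and all 3 knockout arrays lay below them. The level went from 6.90 ± 0.08 to 5.66 ± 0.29 (SD, n = 3 each), a change of −1.24 ± 0.19 (SE), 2.36-fold lower, with an adjusted p of 0.0328. It was called without knockout replicate 1 or 2 but not without any other single array, with adjusted p of 0.0283 to 0.187. With trended robust eBayes the adjusted p was 0.0634. Scgn read 5.01, 5.01 and 5.20 in wildtype and 3.42, 4.37 and 3.44 in knockout eyes, lower on every array (−1.33 ± 0.28 SE, 2.52-fold lower, adjusted p = 0.098). Knockout replicate 2 was the array nearest the wildtype group, and without it Scgn was called (−1.65 ± 0.17, adjusted p = 0.00562). With 1 fit over all 14 arrays it was called as well (adjusted p = 0.0254).

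The glycine transporter Slc6a9 read 10.72, 10.20 and 10.34 in wildtype and 11.24, 10.99 and 10.82 in Brg1 cKO eyes, higher on every array (0.60 ± 0.21 SE, adjusted p = 0.384). Its dimmer probe set gave 0.56 ± 0.18. Tfap2b read 9.50, 8.97 and 9.36 in wildtype and 8.39, 8.11 and 9.04 in knockout eyes, where knockout replicate 3 overlapped the wildtype range (−0.76 ± 0.28, adjusted p = 0.419). Gad2 read 7.52, 6.55 and 7.34 in wildtype and 6.70, 5.66 and 7.13 in knockout eyes, with overlap (−0.63 ± 0.42). The other 6 amacrine and horizontal cell genes, Gad1, Slc32a1, Onecut1, Th, Ebf1 and Ebf3, lay between −0.59 and 0.39 with overlapping groups.

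No ganglion cell gene had groups that stood apart in Brg1 cKO eyes. The 7 changes lay between −0.35 (Rbpms) and 0.41 (Slc17a6), with adjusted p of 0.758 to 0.96. Rbpms read 8.53, 8.19 and 7.02 in wildtype and 7.65, 7.48 and 7.58 in knockout eyes, where wildtype replicate 3 was the lowest of all 6 arrays. Among the general neuronal and synaptic genes, Apba2 read 7.45, 6.91 and 7.51 in wildtype and 7.65, 7.79 and 7.63 in knockout eyes. It was higher on every array (0.40 ± 0.20 SE, adjusted p = 0.656). Syt1 read 6.45, 4.91 and 5.96 in wildtype and 5.14, 4.37 and 6.28 in knockout eyes, with overlap (−0.51 ± 0.55). The other 9 general neuronal and synaptic genes lay between −0.47 (Syn2) and 0.26 (Syp), and Stmn2 and Gap43 both gave 0.01.

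**Figure D3:**
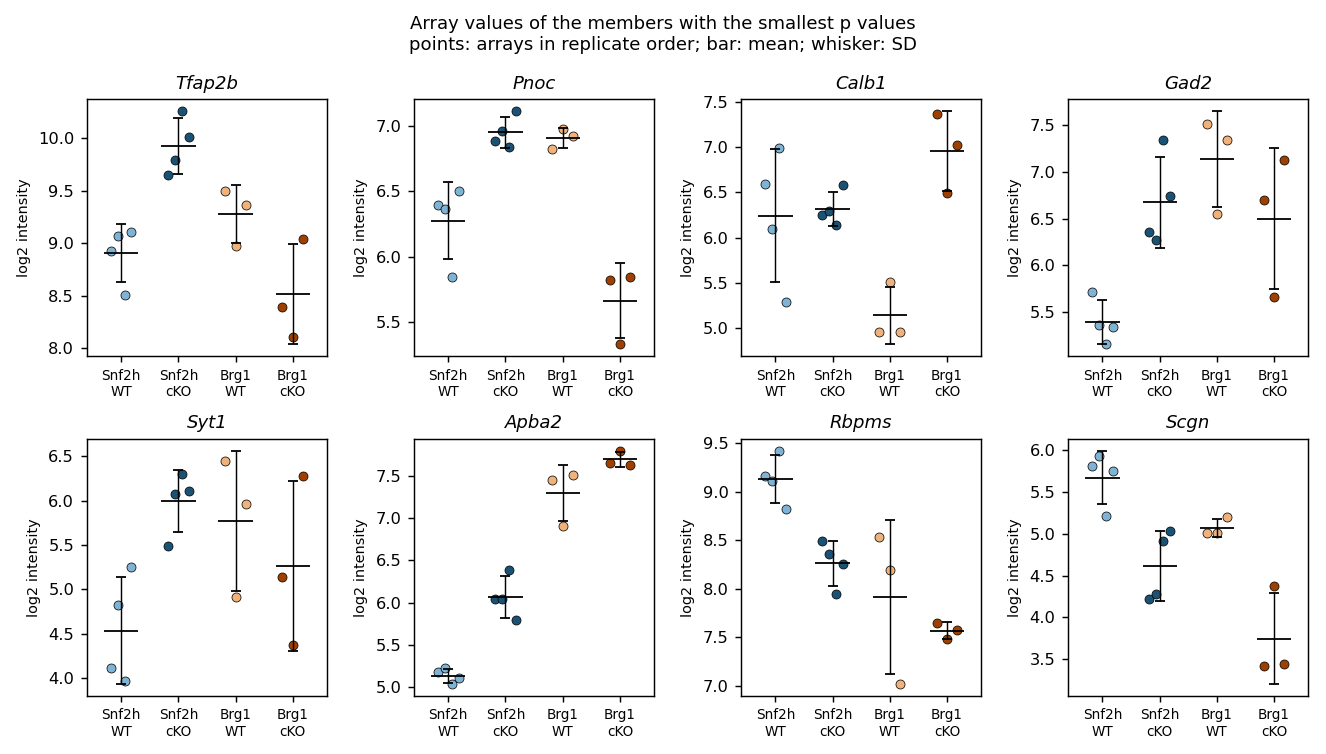
Log2 intensity of 8 genes with small p values on every array of the 4 groups, with group means as bars and SD as whiskers. Pnoc is at 6.84 to 7.11 in Snf2h cKO and 5.33 to 5.84 in Brg1 cKO eyes, on opposite sides of the respective wildtype arrays, while Scgn is below wildtype in both.

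Brg1 cKO replicate 2 stood apart from the other knockout arrays. It was the lowest of its group for 23 of the 31 genes. Its mean difference from wildtype was −0.38 for the amacrine and horizontal, −0.27 for the ganglion cell and −0.40 for the general neuronal and synaptic class. The other knockout arrays were at 0.03 and −0.03, 0.33 and 0.23, and 0.23 and 0.13. Without replicate 2, 11 genes were higher and 2 lower on every array, beside 25% of all genes in either direction. The same array was lowest in the means of progenitor and glial genes (−0.40) and photoreceptor genes (−0.26), and highest in those of skeletal muscle (1.01) and immune genes (2.77). The part of tissue make-up in these values was not tested.

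The other lists with the largest medians in Brg1 cKO eyes were non-neuronal. All 19 lens fibre genes had negative changes (median −2.39, 3 called), with a summed intensity of 106300 to 120400 in wildtype and 14880 to 68060 in knockout arrays. All 20 immune genes had positive changes (median 1.19, 5 called), with sums of 2313 to 3271 and 8553 to 24840. Neuronal cytoskeleton and axon genes had a median of 0.02, with 0 of 36 called and 3 higher and 3 lower at an unadjusted p under 0.05, receptor genes −0.08 (0 of 24 called) and other vesicle genes 0.17 (0 of 25 called). Peripherin (Prph), an intermediate filament of peripheral neurons, gave 1.26 ± 0.25 (SE, adjusted p = 0.0828) and the heavy neurofilament Nefh 0.75 ± 0.23 (0.288). Of the 29 inner retina regulators 23 had negative changes (median −0.20), and 1, Prox1, was called (−1.83 ± 0.20, adjusted p = 0.0102). Prox1 is a homeodomain factor of horizontal and amacrine cells that lens fibre cells express too.

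**Figure D4:**
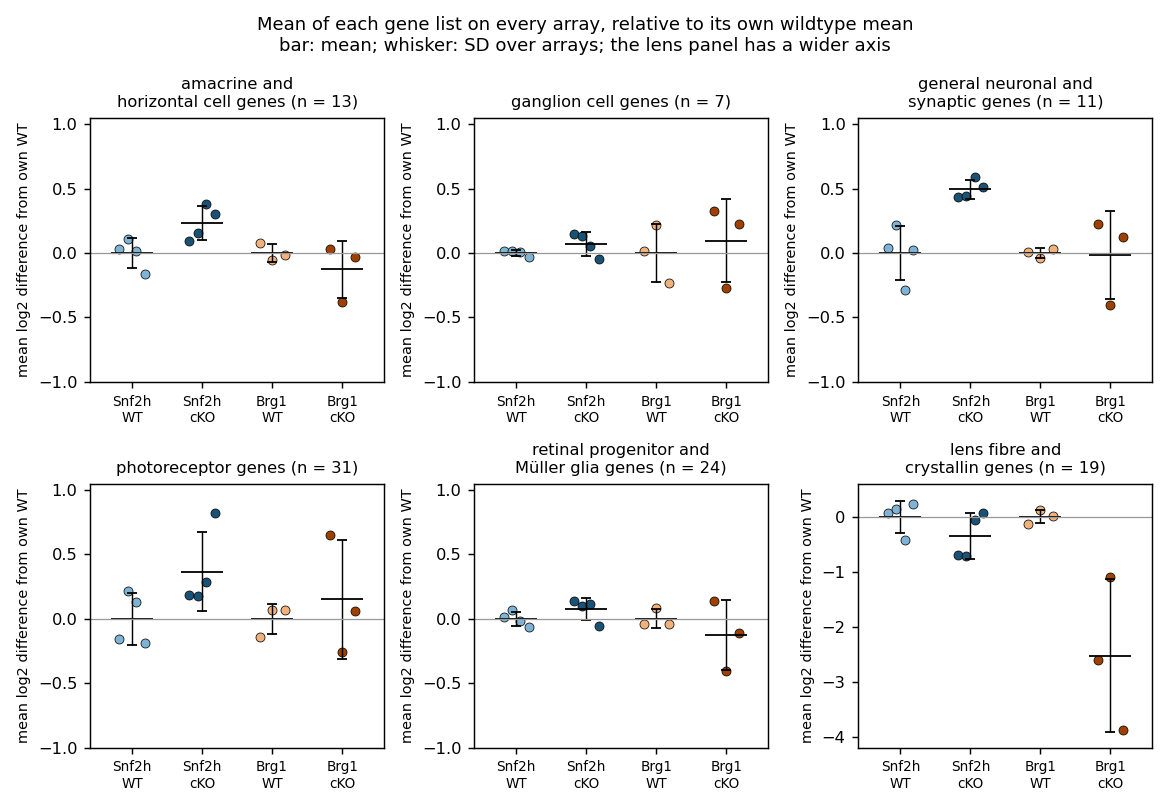
Mean log2 difference of each gene list from its own wildtype mean, per array, with group means as bars and SD as whiskers. The general neuronal and synaptic genes lie at 0.43 to 0.59 in Snf2h cKO arrays, above all wildtype arrays, while 1 Brg1 cKO array lies at −0.40. The lens genes of Brg1 cKO arrays lie at −3.87 to −1.10.

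To compare the changes of the neuronal genes between the experiments, the Snf2h effect was subtracted from the Brg1 effect in 1 fit over all 14 arrays. The experiments differ in strain as well as in the gene knocked out. Of the 31 genes 2 were called, both lower in Brg1 cKO than in Snf2h cKO eyes relative to their own wildtype, beside 0.928% of all genes in either direction, 0.113% lower and 0.815% higher. The difference was negative for 20 of the 31 and positive for 11, beside 43.6% and 56.4% of all genes. Pnoc differed by −1.92 ± 0.25 (SE, adjusted p = 0.00128), from 0.68 in Snf2h cKO and −1.24 in Brg1 cKO eyes, with groups that did not overlap in either experiment. Tfap2b differed by −1.78 ± 0.33 (SE, adjusted p = 0.0184), from 1.02 and −0.76. Pnoc was called in all 22 alternatives that gave it a value, with adjusted p of 0.000291 to 0.0155. Tfap2b was called in 19 of 23. The exceptions included the fits without Brg1 wildtype replicate 1 (0.0705) or 3 (0.0576) and without Snf2h wildtype replicate 3 with knockout replicates 1 and 2 averaged (0.0525).

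At an unadjusted p under 0.05 the difference was lower for 7 genes and higher for 2 of the 31, against 4.58% and 7.46% of all genes. The lower ones beside Pnoc and Tfap2b were Gad2 (−1.92 ± 0.49 SE, adjusted p = 0.103), Syt1 (−1.96 ± 0.64, 0.224), Sncg (−1.30 ± 0.58, 0.392), Onecut1 (−1.05 ± 0.44, 0.361) and Apba2 (−0.53 ± 0.24, 0.404). The higher ones were Calb1 (1.73 ± 0.47, 0.133) and Thy1 (0.84 ± 0.29, 0.251). The median difference was −0.35 for the general neuronal and synaptic, −0.27 for the amacrine and horizontal and 0.11 for the ganglion cell genes. Over all genes it was 0.06. Scgn did not pass the test of the difference (−0.27 ± 0.38), with negative changes on non-overlapping arrays in each experiment. Among inner retina regulators Prox1 was called (−1.81 ± 0.39, adjusted p = 0.0437).

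The wildtype eyes of the experiments had different levels of these genes to begin with. In 19 of 31 genes (61.3%) the Snf2h and Brg1 wildtype arrays did not overlap, 9 higher and 10 lower on the mixed background, beside 45.1% of all genes. The median absolute difference was 0.90, against 0.47 over all genes. Apba2 was at 5.14 and 7.29 and Gad2 at 5.39 and 7.13 in Snf2h and Brg1 wildtype eyes, while the synapsin Syn1 was at 8.82 and 6.79 and Thy1 at 10.07 and 8.53. For Apba2 the Snf2h cKO arrays (5.80 to 6.39) stayed below all Brg1 arrays (6.91 to 7.79), and for Gad2 they reached 6.27 to 7.34, within the range of Brg1 wildtype arrays (6.55 to 7.52) in part. Strain, experiment and processing cannot be told apart here, and the fit of the difference removes such offsets only where they are the same for wildtype and knockout arrays.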

How the data were processed

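Per the labels, 50 ng of total RNA from each eye sample was amplified, biotin-labelled and hybridised to an Affymetrix array, 14 in all. The authors deposited a linear intensity per probe set, made with RMA per the submitters' processing notes. The RMA version, and whether the 2 experiments were processed together, are not given in the sources used here. The log2 of the deposited intensity was taken without further scaling. Median intensity was 100.8 to 113.6 per array, and the number of arrays limits the precision. No detection calls were at hand, so dim probe sets, whose changes are compressed, were kept. Of 22690 probe sets, 64 controls were left out, 20380 had 1 gene in the array annotation, 691 several and 1555 none.

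The test was limma 3.58.1 (lmFit, eBayes, two-sided; R 4.3.3), with each knockout against its own wildtype and the knockouts compared with each other by an interaction contrast over 4 group means. Adjusted p-values (Benjamini-Hochberg) run over all 12393 genes, or over all probe sets where single probe sets are named. Errors of changes are limma's standard errors. On simulated data, with 100 changed genes per size, log2 changes of 1 and 2 were recovered for 59% and 95% of genes in the Snf2h, 28% and 87% in the Brg1 and 27% and 71% in the interaction design, with 10, 6 and 5 calls among unchanged genes. The simulated arrays were independent, with 1 SD per gene averaged over the 4 groups. They held no near-identical pair and no array of low RNA quality, so these shares do not give the power of the real comparisons.

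The members and lists were chosen with earlier results of these data known, so no test was made on a list, and counts stand beside those of all genes. Array values were given for members called in any comparison and for the 5 with the smallest p in each knockout, with up to 3 genes of each other list. The genes shown for wildtype replicate 3 and the promoter motifs were chosen after their values were seen. Alternatives were quantile normalisation over all arrays or per experiment, a filter on genes with a mean log2 level under 6.87, the mean of all probe sets, trended robust eBayes, array weights, 1 fit over all arrays, near-identical arrays averaged, the replicate number as a block and leaving out each array in turn.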

Additional observations from a re-analysis of the deposited data

Results flagged for a closer look

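Single arrays stood far from the other arrays of their group for 8 of the 62 combinations of gene and Snf2h group examined, where chance gives about 1 in 20. Snf2h wildtype replicate 3 was low for Vamp2 at 7.36 (others 9.01 to 9.28) and for Stmn2 at 9.40 (10.90 to 11.11), and high for Slc17a6 at 9.66 (9.08 to 9.15). Wildtype replicate 4 was low for Ebf3 at 9.55 (others at 9.93 and above) and Elavl4 at 7.58 (8.54 to 8.71). Among knockout arrays, replicate 3 was high for Thy1 at 9.79 (9.58 to 9.61) and low for Syn1 at 8.50 (8.94 to 9.02), and replicate 4 was high for Slc32a1 at 8.25 (7.54 to 7.63). In the knockout group, replicates 1 and 2 were near-identical, so these are not 4 independent readings. The Brg1 groups, with 3 arrays each, were not examined in this way.

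The change from own wildtype differed between the experiments for Tfap2b, by −1.78 ± 0.33 (SE), and for Pnoc, by −1.92 ± 0.25, in the interaction contrast. Knockout, strain, experiment and processing cannot be told apart in this contrast. Tfap2b was called in neither knockout against its own wildtype (limma, adjusted p = 0.106 for Snf2h and 0.419 for Brg1), and its Brg1 arrays overlapped. Both genes were higher in Snf2h cKO and lower in Brg1 cKO eyes than in their own wildtype, by means over 4 and 3 arrays a group.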

How the results depend on the processing

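Quantile normalisation over all arrays or per experiment gave 11 genes higher and 3 lower on non-overlapping arrays in Snf2h cKO and 3 higher and 2 lower in Brg1 cKO eyes, the counts found without it. The genes called in Snf2h cKO eyes (2) became 1 with quantile normalisation over all arrays, 5 with the filter on dim genes, 7 with trended robust eBayes, 4 with 1 fit over all arrays, 230 with array weights, and 0 with knockout replicates 1 and 2 averaged, also without wildtype replicate 3. Those in Brg1 cKO eyes (135) became 19, 209 and 260 with the filter, array weights and 1 fit, and those of the difference (115) 13 with the filter, 174 with array weights and 69 without Snf2h wildtype replicate 3 and with knockout replicates 1 and 2 averaged. The filter removed 9 members, namely Gad2, Onecut1, Calb1, Th, Scgn, Pnoc, Syt1, Syn2 and Apba2. It left 9 members apart in Snf2h cKO and 1 in Brg1 cKO eyes. It moved the amacrine median to 0.23 in Brg1 cKO eyes and −0.13 in the difference. Array weights moved the latter to −0.12, and the mean of all probe sets the ganglion cell median to 0.11 in Snf2h cKO eyes. Leaving out 1 array gave 0 to 60 genes called in Snf2h cKO (60 without wildtype replicate 1), 26 to 215 in Brg1 cKO (26 without wildtype replicate 2, 215 without knockout replicate 2) and 68 to 162 in the difference, and 6 to 13 members apart in Brg1 cKO eyes. The medians then ran, in Snf2h cKO eyes, from −0.10 to 0.31 (amacrine), −0.083 to 0.087 (ganglion cell) and 0.10 to 0.24 (all members), in Brg1 cKO eyes from −0.40 to −0.015 (amacrine), and in the difference from −0.44 to −0.012 (amacrine), −0.027 to 0.31 (ganglion cell) and −0.40 to 0 (all members). The causes of these shifts were not tested.

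Whether replicate numbers pair the arrays was not settled. Same-numbered arrays correlated in their deviations from the group means at 0.10, −0.27, −0.19 and 0.01 in the Snf2h and 0.09, −0.01 and 0.06 in the Brg1 experiment. Arrays of different number gave −0.26 to 0.295 and −0.298 to 0.221. With so few arrays a group, these values cannot exclude pairing. With the number as a block, 0 genes were called in Snf2h cKO, 49 in Brg1 cKO and 79 in the difference, and adjusted p was 0.124 for Calb1 and 0.116 for Pnoc in Brg1 cKO eyes and 0.0601 for Tfap2b and 0.0155 for Pnoc in the difference.

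Signs changed for 10 members in Snf2h cKO and 12 in Brg1 cKO eyes, with main changes of at most 0.16 and 0.41 in size and none called, while the 9 members past an unadjusted p of 0.05 in the difference kept theirs. In Snf2h cKO eyes, quantile normalisation gave 0.022 for Th over all arrays and 0.023 per experiment. The mean of probe sets gave 0.15 for Slc32a1, −0.28 for Calb1, 0.11 for Ebf3, 0.76 for Slc17a6, 0.018 for Syn2 and 0.24 for Elavl4. Array weights gave −0.002 for Gad1 and 0.043 for Slc17a6, and averaging knockout replicates 1 and 2 gave −0.009 for Isl1. With that and without wildtype replicate 3, Slc32a1 was at 0.18, Isl1 at −0.03 and Slc17a6 at 0.074, and the medians were 0.34 (amacrine) and 0.28 (all members). In Brg1 cKO eyes, Snap25 was at 0.016 with quantile normalisation of either kind. The mean of probe sets gave 0.14 for Isl1 and −0.007 for Slc17a6, and array weights gave −0.13 for Th, 0.067 for Isl1, 0.011 for Snap25, 0.014 for Vamp2 and 0.29 for Elavl4. Leaving out 1 array in the Snf2h experiment gave −0.10 to 0.24 for Gad1, −0.24 to 0.14 for Slc32a1, −0.24 to 0.33 for Calb1, −0.46 to 0.005 for Th, −0.13 to 0.041 for Ebf3, −0.11 to 0.21 for Isl1, −0.11 to 0.087 for Slc17a6, −0.11 to 0.24 for Syn1. Leaving out 1 array in the Brg1 experiment gave −0.56 to 0.067 for Gad1, −0.12 to 0.22 for Th, −0.21 to 0.17 for Isl1, −0.44 to 0.15 for Nefl, −0.23 to 0.16 for Snap25, −0.21 to 0.11 for Vamp2, −0.086 to 0.53 for Syn1, −0.078 to 0.25 for Elavl3, −0.33 to 0.50 for Elavl4, −0.11 to 0.22 for Stmn2, −0.15 to 0.14 for Gap43. Signal limits the dimmer genes: 9 of the 31 had a mean level under 6.87.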
